A study of Homo sapiens with 4 samples.

Results

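The secretory pathway machinery comprised 47 genes whose products bring proteins into the endoplasmic reticulum (ER), process and fold them there, and carry them towards the Golgi. Its members were the accessible intervals of TMD8 cells assigned to these genes by position: an interval whose midpoint lay inside the gene body, or otherwise an interval for which the gene's end was the nearest protein-coding gene end within 100 kb. This rule placed 166 of the 73135 intervals at 42 of the genes, 74 of them in gene bodies and 92 outside. Accessibility was read out with ATAC-seq, which counts insertions of a transposase into open chromatin, in 2 shIRF4 libraries (TMD8 cells with a short hairpin RNA against IRF4) and 2 control libraries (TMD8 cells with a scrambled short hairpin RNA). TMD8 is an established cell line of activated B cell-like (ABC) diffuse large B cell lymphoma, and a single line stands for that disease here. The labels give no time after silencing and do not say whether the libraries of a group came from separate cultures, so the p-values measure the spread between these libraries, which may be technical. IRF4 mRNA and the mRNAs of the secretory genes were not analysed here, and accessibility does not measure them, so the silencing itself was not checked.

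Nascent secretory proteins carry a signal sequence that the signal recognition particle binds and delivers to its receptor at the ER. The chain then threads through the Sec61 channel, loses its signal to the signal peptidase, receives glycans from the oligosaccharyltransferase, folds with the help of calreticulin, calnexin and disulfide isomerases, and leaves in vesicles coated by COPII. B cells expand this machinery greatly when they turn into antibody-secreting plasma cells, a transition in which IRF4 acts together with BLIMP1 and XBP1. Several of these genes respond to the unfolded protein response through the ER stress response element (ERSE), bound by ATF6 with NF-Y, and through sites bound by XBP1.

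The promoters of 6 members are shown, because the main contrast in these data lay between gene starts and sites elsewhere. CALR, CANX and PDIA6 are the members with an ERSE match, among the 41 genes with a RefSeq start window. SSR1 is the member whose start passed the test, and SPCS3 and SEC11C are 2 members with strong falls upstream of their starts. Each sequence is the 250 bases before a RefSeq start (GRCh38.p14), 5' to 3' on the strand of the gene. Capitals mark an ERSE match in CALR, CANX and PDIA6 and a CCAAT box, read on either strand, in SPCS3 and SSR1. SEC11C had neither and is in lower case.
CALR, chr19:12938359-12938608, plus strand: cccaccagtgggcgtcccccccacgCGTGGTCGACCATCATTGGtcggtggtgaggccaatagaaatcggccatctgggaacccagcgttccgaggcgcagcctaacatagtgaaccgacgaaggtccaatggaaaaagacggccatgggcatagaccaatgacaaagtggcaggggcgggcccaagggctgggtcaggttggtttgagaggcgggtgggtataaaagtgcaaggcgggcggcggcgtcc
CANX, chr5:179698679-179698928, plus strand: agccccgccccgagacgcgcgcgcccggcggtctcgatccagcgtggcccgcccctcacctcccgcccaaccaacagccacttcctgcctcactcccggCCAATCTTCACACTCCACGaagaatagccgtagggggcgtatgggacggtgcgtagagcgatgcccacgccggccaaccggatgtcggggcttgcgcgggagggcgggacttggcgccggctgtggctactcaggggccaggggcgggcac
PDIA6, chr2:10812786-10813035, minus strand: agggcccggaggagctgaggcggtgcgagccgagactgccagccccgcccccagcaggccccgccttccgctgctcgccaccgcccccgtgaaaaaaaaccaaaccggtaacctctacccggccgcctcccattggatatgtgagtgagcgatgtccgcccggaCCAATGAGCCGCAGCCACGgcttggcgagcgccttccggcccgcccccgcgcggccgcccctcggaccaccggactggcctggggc
SPCS3, chr4:176319716-176319965, plus strand: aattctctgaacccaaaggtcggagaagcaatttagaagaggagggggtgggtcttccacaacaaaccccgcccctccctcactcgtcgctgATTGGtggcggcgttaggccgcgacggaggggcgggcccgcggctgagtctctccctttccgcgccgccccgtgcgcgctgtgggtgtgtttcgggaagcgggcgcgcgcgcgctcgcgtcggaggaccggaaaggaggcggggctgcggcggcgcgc
SSR1, chr6:7313200-7313449, minus strand: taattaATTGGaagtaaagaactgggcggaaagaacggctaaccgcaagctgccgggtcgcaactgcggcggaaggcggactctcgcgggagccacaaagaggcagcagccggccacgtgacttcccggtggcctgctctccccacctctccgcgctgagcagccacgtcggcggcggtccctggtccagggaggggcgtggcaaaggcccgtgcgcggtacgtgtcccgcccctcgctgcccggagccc
SEC11C, chr18:59139634-59139883, plus strand: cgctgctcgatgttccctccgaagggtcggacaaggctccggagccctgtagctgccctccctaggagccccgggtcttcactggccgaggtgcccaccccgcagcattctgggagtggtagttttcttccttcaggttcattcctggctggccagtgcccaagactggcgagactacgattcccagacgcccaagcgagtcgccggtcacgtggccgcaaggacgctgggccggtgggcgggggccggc
RefSeq gave start windows (250 bases before to 50 after the start) for 41 of the 47 genes, 60 windows in all. The ERSE, searched on both strands as CCAAT, any 9 bases and CCACG, stood in 5 of these 60 windows, at 3 genes, and in 0.0769% of all 35116 RefSeq windows. The core of the XBP1 site, TGACGTGG, stood in 6 windows, those of SEC23A, SEC24A, SEC62, SRP19, SSR3 and SSR4, and in 0.729% of all windows. The core of the interferon-stimulated response element, GAAA, any 2 bases and GAAA, which IRF factors bind, stood in 2 windows, those of SEC23B and SRP54, and in 3.57% of all windows. The composite of an ETS and an IRF site, GGAA, any 2 bases and GAAA, stood in 1 member window, that of SSR4, and in 2.82% of all windows. No member window held the second form of the ERSE (ATTGG, any base, CCACG), which stood in 0.0541% of all windows. AP-1 and IRF sites together were searched in 1 arrangement only, TGANTCA, any 2 bases and GAAA. It stood in no member window and in 0.0997% of all windows. Other spacings and orders were not searched, so composites with those could have been missed. A CCAAT box alone, which is also the first part of the ERSE, stood in 32 of the 60 windows and in 34.6% of all windows.

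Summed over intervals, the shIRF4 libraries held 17954924 and 9112860 reads and the control libraries 12152153 and 13609123 reads. Levels are given as CPM, read counts normalised to library size after scaling by TMM factors, and changes as log2 fold changes of shIRF4 over control from edgeR's quasi-likelihood test on all 73028 tested intervals. An interval is called lower or higher at a Benjamini-Hochberg adjusted p under 0.05 over all of them. A bulk library cannot tell fewer cells with an open site from less opening per cell. The labelled cell type was checked on its defining markers: an interval lay at an end of each of 6 B cell markers, and the one at CD79A had 81.7 and 78.3 CPM in the shIRF4 libraries and 78.6 and 73.1 CPM in the control libraries. Of 9 markers of T cells, myeloid cells, and epithelial cells and fibroblasts, 6 had no interval at a gene end. The other 3 were CD3E, CD14 and COL1A1, with COL1A1 the highest at 14.5 to 16.5 CPM.

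In shIRF4 cells, called changes at the secretory genes lay almost all away from gene starts, and most of them were falls, while the starts were close to the control level. This contrast is not particular to these genes. Over all intervals, 11.8% of those at a start or gene end were called, against 25.0% of assigned intervals elsewhere, and most calls were falls. Of the 166 member intervals, 32 were lower in shIRF4, 9 were higher and 125 were not called, so 24.7% were called against 22.8% of all tested intervals and 21.8% of those assigned to a gene. The lower ones made up 19.3% of the members, against 15.5% of all intervals and 14.6% of the assigned ones, and the higher ones 5.42%, against 7.26% and 7.21%. The CPM of the groups did not overlap at 99 of the 166, and at 59.1% of all intervals. The median log2 fold change was 0.03 over the members and 0.01 over all intervals. Of all called intervals 68.1% were lower, and 58.0% with scaling by library totals alone, under which the members had 28 lower and 13 higher. The 41 called intervals lay at 18 genes, 16 of them with a lower one and 6 with a higher one, 4 genes being in both counts. Of the lower intervals 14 changed at least 2-fold, and of the higher ones 3. DESeq2 called 15 of the 166 members lower and 1 higher, and 3714 of all 73028 tested intervals lower and 856 higher. The DESeq2 counts given below for each role are to be set against these, not against the edgeR shares. Without shIRF4 replicate 1 there were 20 lower and 3 higher, without control replicate 2 there were 3 higher, and without shIRF4 replicate 2 there were 14 higher. Of the 41 calls, 19 held with any 1 library left out, and 16 of those also in DESeq2.

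**Figure D1:**
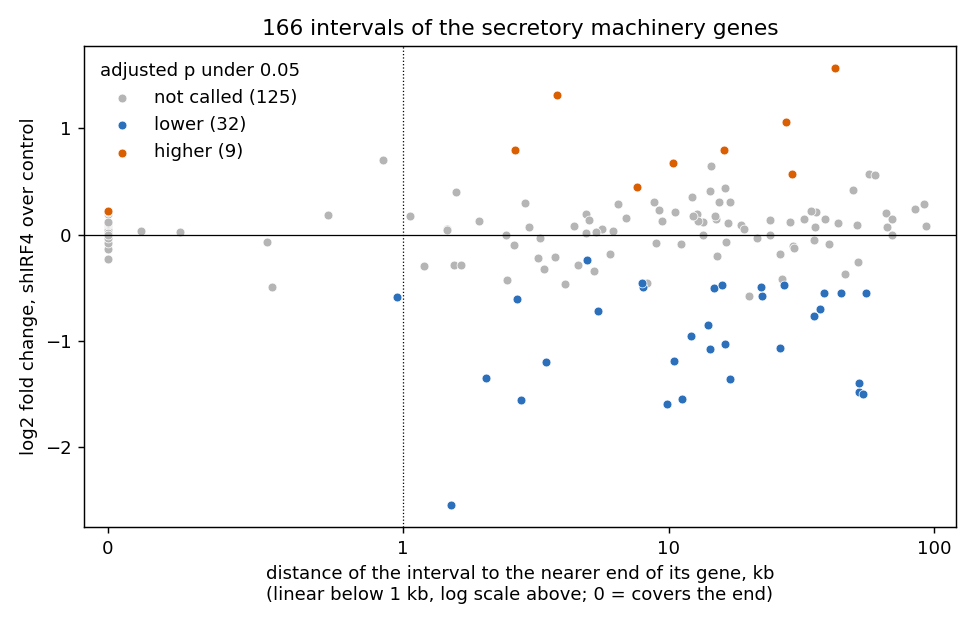
Log2 fold change of shIRF4 over control (vertical axis) against the distance from each of the 166 member intervals to the nearer end of its gene in kb (horizontal axis, linear below 1 kb and logarithmic above). Points are intervals, coloured by call; beyond 1 kb lie 31 of the 32 lower intervals, and intervals that cover a gene end sit close to 0.

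At starts and gene ends, 48 intervals of 40 members were measured, and 1 was lower, 1 higher and 46 not called, 4.17% against 11.8% of all intervals at a start or gene end (6.69% lower and 5.06% higher). The groups did not overlap at 24 of the 48, against 53.0% of all such intervals. At an unadjusted p under 0.05, edgeR gave 3 lower and 4 higher and DESeq2 1 lower and 0 higher. The shares of all intervals given here are for the adjusted p, so the unadjusted counts cannot be set against them. The median log2 fold change there was 0.04, and 45 of the 48 lay within 0.25 of no change. The 38 of them that covered an annotated start averaged 12.6 to 98.6 CPM in shIRF4 and 11.6 to 95.3 CPM in control. Over starts alone, 1 of 38 was called (2.63%, higher), against 8.51% of all intervals over an annotated start (3.81% lower and 4.7% higher). Each of the 41 genes with RefSeq start windows had an interval over at least 1 of them. Another window of each of SEC61A1, SSR3, PDIA4 and SRP68 had none, and at SSR3 that was the window with the XBP1 core. Of the 41 genes, 36 had an interval of their own over a start. At SEC61B, SRP68, SPCS2, RPN2 and DDOST the interval over the start had its midpoint nearer to or inside a neighbouring gene (ALG2, GALR2, XRRA1, MROH8 and KIF17). These 5 changed by -0.08 to 0.14. The starts of SRPRA and SPCS1, for which no window was given, were likewise near an interval assigned to FOXRED1 and GLT8D1, at 0.03 and 0.00. With DDOST, SPCS2 and SRP68, these are the 5 members with no interval of their own. Elsewhere, more than 1 kb from any end of the gene and off its annotated starts, 118 member intervals were measured, of which 31 were lower and 8 higher, 33.1% against 25.0% of all assigned intervals elsewhere (17.1% lower and 7.88% higher). In gene bodies 13 of 43 were lower and 3 higher, against 18.0% lower and 7.94% higher of all (26.0% called). Outside genes 18 of 75 were lower and 5 higher, against 15.8% lower and 7.79% higher of all (23.6% called). Neighbouring intervals of a gene are not independent, and 11 of the 32 lower ones lay at SEC11C, SPCS3 and SEC63. The difference between the members' shares and those of all intervals was not tested.

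**Figure D2:**
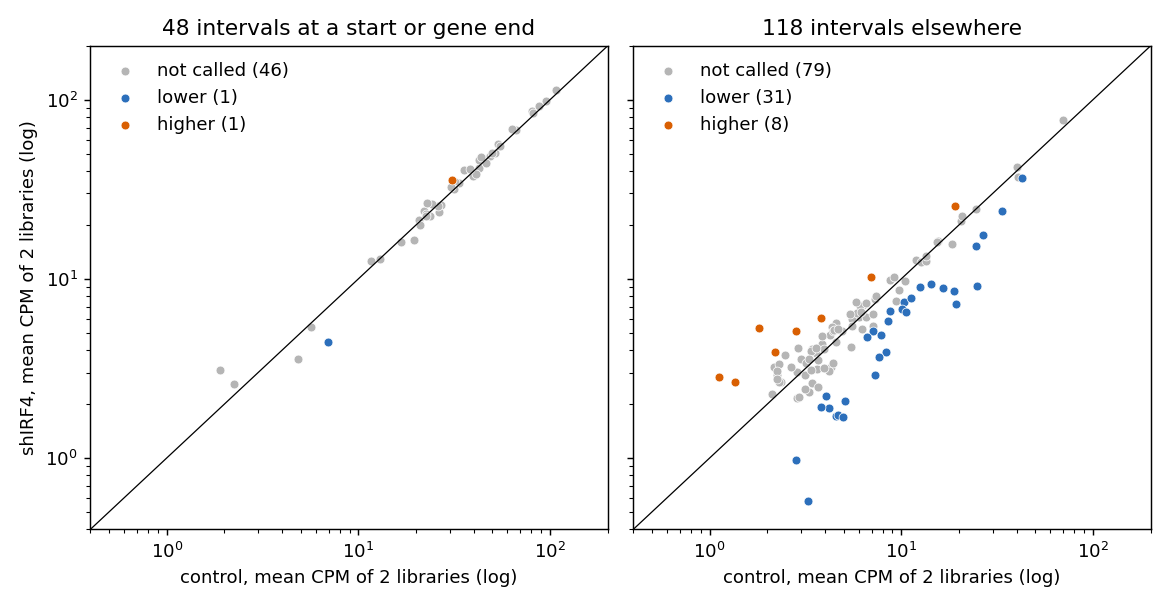
Mean CPM of 2 shIRF4 libraries (vertical axis, log scale) against mean CPM of 2 control libraries (horizontal axis, log scale) for the 48 member intervals at a start or gene end (left) and the 118 elsewhere (right). Points are intervals coloured by call and the line marks equal levels; the left panel holds 2 called intervals and the right panel 39, most of them below the line.

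In the Sec61 channel and its partners, 8 of 37 intervals were lower and 1 higher, the lower ones at SEC61B, SEC63, SSR1 and SSR2 (21.6% lower, against 15.5% of all intervals). DESeq2 called 4 lower and 0 higher. SEC63, a membrane protein that recruits the chaperone BiP to the channel, held the largest fall of all members. Its interval at chr6:107869274-107869481, in the gene body about 88831 bp from the annotated start, had 0.489 and 0.655 CPM in the shIRF4 libraries (9 and 6 reads) and 3.61 and 2.90 CPM in the control libraries (43 and 39 reads). The log2 fold change was -2.55 (SE 0.32, adjusted p = 3.58e-06, edgeR). Both shIRF4 libraries lay far below both control libraries, at a depth where a few reads matter. Intervals other than the one of smallest p in each gene are described here after their values were seen. The 2 neighbours of this SEC63 site, at chr6:107869801-107870382 and chr6:107870525-107870769, changed by -1.35 (SE 0.19) and -1.56 (SE 0.31), so that the 3 fell together within 1496 bp near the end of the gene. The call of the last one was lost in DESeq2 (adjusted p = 0.0556). The start of SEC63 had 16.1 and 15.9 CPM in shIRF4 and 17.3 and 16.3 CPM in control (-0.07, adjusted p = 0.704, edgeR).

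SEC61B encodes the small beta subunit of the channel. Its interval at chr9:99244972-99245308, 14525 bp past the end of the gene, had 3.91 and 3.93 CPM in the shIRF4 libraries and 8.64 and 7.96 CPM in the control libraries. It fell to 3.92 ± 0.0133 CPM in shIRF4, against 8.30 ± 0.481 CPM in control (SD, n = 2 each; log2 fold change -1.08, SE 0.17, adjusted p = 5.90e-05, edgeR). These levels rest on 72 and 36 reads in shIRF4 and 103 and 107 in control. An SD of 2 libraries is itself uncertain, so the small one in shIRF4 does not measure precision. Another interval at chr9:99253140-99254437 fell by 0.58 (SE 0.10), while 8 of the 11 SEC61B intervals were not called. SSR1 and SSR2 encode subunits of the translocon-associated complex that helps some chains enter the channel. The SSR1 interval at chr6:7277270-7278464, 3276 bp past the gene, had 9.34 and 9.49 CPM in shIRF4 and 14.9 and 13.8 CPM in control (-0.61, SE 0.12), a call that DESeq2 did not make (adjusted p = 0.0689). The SSR2 interval at chr1:156012506-156012751 in the gene body had 1.63 and 2.18 CPM in shIRF4 and 4.53 and 3.87 CPM in control (-1.20, SE 0.24), and its call was lost in DESeq2 (adjusted p = 0.0639) and, in edgeR, when shIRF4 replicate 1 was left out (adjusted p = 0.0551). The start of SSR1, at chr6:7312561-7313830, had 37.0 and 33.9 CPM in shIRF4 and 30.5 and 30.8 CPM in control (0.22, SE 0.08, adjusted p = 0.0496, edgeR). This only rise at a member's start was lost in 3 of the 4 fits that left out a library, in DESeq2 (adjusted p = 0.534), with the replicate number as a block (adjusted p = 0.0649) and without a filter on low counts (adjusted p = 0.0504). The channel's large subunits SEC61A1 and SEC61A2 had starts at 45.0 and 46.1 CPM and at 56.7 and 56.8 CPM in shIRF4, and at 42.4 and 46.3 CPM and 54.2 and 53.5 CPM in control, and neither start was called.

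For the signal recognition particle and its receptor, 7 of 19 intervals were lower and 12 were not called, with the lower ones at SRP14, SRP54 and SRPRB (36.8% lower, against 15.5% of all intervals). DESeq2 called 2 of them lower. SRP54 encodes the GTPase subunit that binds the signal sequence. Its interval at chr14:34930806-34931103, 52038 bp upstream of the gene, had 1.47 and 1.96 CPM in the shIRF4 libraries and 4.45 and 4.69 CPM in the control libraries (-1.48, SE 0.24, adjusted p = 7.97e-05, edgeR). Both shIRF4 libraries lay well below both control libraries, and the call held in every alternative fit. This site and a second one 16348 bp upstream (-1.03, SE 0.24, lost in DESeq2 and without shIRF4 replicate 1) lie in the noncoding gene SRP54-AS1. The start of SRP54 had 50.1 and 43.6 CPM in shIRF4 and 44.3 and 43.2 CPM in control (0.11, adjusted p = 0.316, edgeR). SRP14 encodes a subunit that, with SRP9, slows elongation while the ribosome docks. Its interval at chr15:40054051-40056369 in the noncoding gene SRP14-DT, 16008 bp upstream, had 23.3 and 24.3 CPM in shIRF4 and 33.0 and 33.9 CPM in control (-0.50, SE 0.08, adjusted p = 0.000118, edgeR). SRPRB, which anchors the receptor in the ER membrane, had an interval at chr3:133799865-133800342 with 4.94 and 4.47 CPM in shIRF4 and 6.46 and 6.84 CPM in control (-0.48, SE 0.17, adjusted p = 0.0467, edgeR). That call was lost when any of the 4 libraries was left out.

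Of the signal peptidase genes' 18 intervals, 9 were lower, all at sites away from starts, and 9 were not called (of all intervals 15.5% were lower; the difference was not tested). SEC11C held 5 of the 9 and SPCS3 3. DESeq2 called 6 of the 18 lower. SEC11C and SEC11A encode the catalytic subunits of the enzyme, and SPCS3 a structural one. Upstream of SEC11C, the interval at chr18:59084726-59086006 had 8.09 and 10.3 CPM in the shIRF4 libraries and 23.9 and 26.2 CPM in the control libraries (-1.50, SE 0.12, adjusted p = 5.91e-09, edgeR). The next one, chr18:59086573-59087961, had 7.17 and 7.42 CPM in shIRF4 and 19.8 and 18.7 CPM in control (-1.40, SE 0.12, adjusted p = 1.85e-08, edgeR). These 2 intervals span 3236 bp, and the groups did not overlap at either, as was so at 59.1% of all intervals. On their flanks, 2 further intervals fell by 0.55 each (SE 0.14 and 0.15; both lost in DESeq2 and without shIRF4 replicate 1), and 1 between the pair and the flank nearer the gene was not called (-0.37, adjusted p = 0.219), so that the 5 intervals covered 11549 bp. Farther out, the intervals 66729 and 69256 bp upstream of the gene lay at 0.07 and 0.00. The start of SEC11C was the most accessible of its 12 intervals, with 89.1 and 84.3 CPM in shIRF4 and 82.0 and 79.8 CPM in control (0.10, adjusted p = 0.229, edgeR). In the gene body, an interval 8391 bp from the start fell by 0.46 (SE 0.15, adjusted p = 0.0362, edgeR). That call did not hold without either control replicate or without shIRF4 replicate 1. It was also lost in DESeq2 (adjusted p = 0.481), with scaling by library totals alone and with the control libraries merged.

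At SPCS3, 3 of 4 intervals fell together within 1703 bp, about 10 to 11 kb upstream of the start and inside the noncoding gene SPCS3-AS1. The middle one, chr4:176308914-176309489, had 7.44 and 9.71 CPM in the shIRF4 libraries and 17.6 and 19.9 CPM in the control libraries (-1.19, SE 0.13, adjusted p = 5.86e-07, edgeR). The outer ones, chr4:176308404-176308766 and chr4:176309736-176310106, changed by -1.55 (SE 0.28) and -1.60 (SE 0.24), and all 3 calls held in every alternative fit. The remaining interval covered the start and had 51.9 and 49.4 CPM in shIRF4 and 49.2 and 54.4 CPM in control (-0.03, adjusted p = 0.817, edgeR). SEC11A had an interval in its body at chr15:84686531-84686959 with 1.74 and 2.40 CPM in shIRF4 and 5.70 and 4.46 CPM in control (-1.36, SE 0.24, adjusted p = 0.000178, edgeR). Its start had 43.7 and 39.3 CPM in shIRF4 and 44.5 and 41.1 CPM in control (-0.03), within the spread between libraries.

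**Figure D3:**
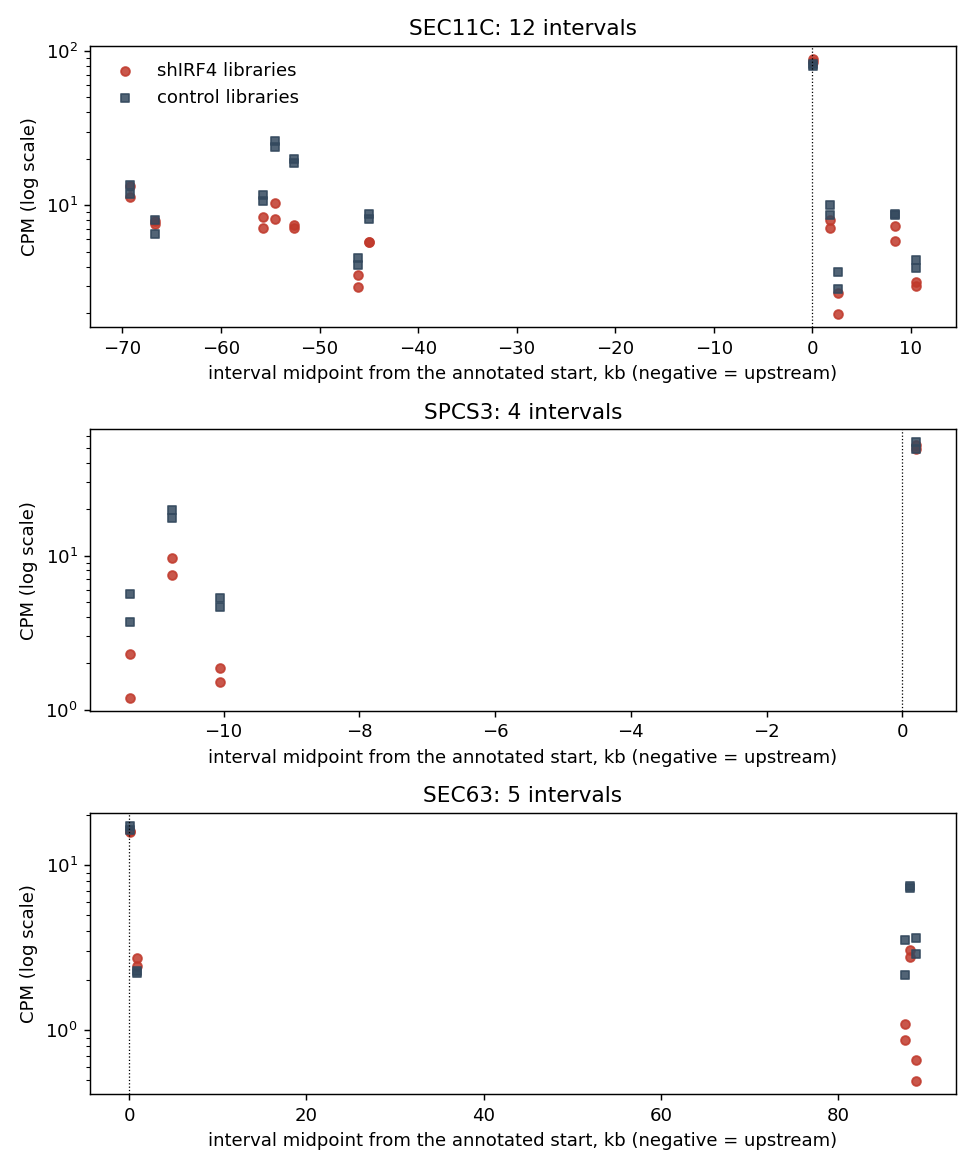
CPM of each interval (vertical axis, log scale) in the shIRF4 libraries (red circles) and control libraries (dark squares) against its midpoint's distance from the annotated start in kb (horizontal axis) for SEC11C, SPCS3 and SEC63. The libraries overlap or nearly overlap at the starts, while the shIRF4 points lie below the control points at the clusters 45 to 56 kb upstream of SEC11C, 10 to 11 kb upstream of SPCS3 and 88 kb into SEC63.

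The oligosaccharyltransferase genes had 5 higher intervals and 0 lower among 31, and 26 were not called (16.1% higher, against 7.26% of all intervals, of which 15.5% were lower). DESeq2 called 1 higher and 0 lower, and at an unadjusted p under 0.05 there were 9 higher and 1 lower in edgeR and 5 higher and 0 lower in DESeq2. No share of all intervals at that unadjusted threshold is given here, so the unadjusted counts cannot be set against the shares above. Of the higher ones 4 were at DAD1, a small subunit of the enzyme, and 1 was at STT3B, a catalytic subunit. The DAD1 interval at chr14:22522407-22522796 had 5.70 and 4.91 CPM in the shIRF4 libraries and 1.51 and 2.08 CPM in the control libraries (1.57, SE 0.23, adjusted p = 2.76e-05, edgeR). Both shIRF4 libraries were above both control libraries, and the call held in every alternative fit. This interval lies 42306 bp from DAD1 inside TRA, the T cell receptor alpha locus, which is not annotated as a protein-coding gene and so could not be the assigned gene. Of the 13 DAD1 intervals 6 lay in TRA, 2 of them among the 4 higher ones. The other 3 higher intervals rose by 0.80 to 1.31, at control means of 1.12 to 2.84 CPM, and their calls were lost without control replicate 2 and in DESeq2. CD3E, the 1 of 3 T cell markers with an interval at a gene end, also was higher, with 4.29 and 3.16 CPM in shIRF4 and 1.93 and 2.01 CPM in control (0.98, adjusted p = 0.00492, edgeR), while CD3D and CD2 had none. Its part in the DAD1 values was not tested. The start of DAD1 had 45.1 and 46.7 CPM in shIRF4 and 44.2 and 41.7 CPM in control (0.09, adjusted p = 0.392, edgeR).

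At STT3B, the interval chr3:31522149-31522525, 10588 bp outside the gene, had 6.19 and 5.89 CPM in shIRF4 and 3.44 and 4.17 CPM in control (0.67, SE 0.19, adjusted p = 0.0117, edgeR). This rise depended on single libraries, with an adjusted p of 0.154 when control replicate 1 was left out and 0.0932 when shIRF4 replicate 1 was, and DESeq2 gave 0.254. The STT3B gene end had the highest level of all starts and gene ends, with 115 and 114 CPM in shIRF4 and 107 and 106 CPM in control (0.10, adjusted p = 0.200, edgeR). RPN1, a subunit that contacts the ribosome and incoming chains, had 10 intervals between -0.47 and 0.31, and the smallest adjusted p among them was 0.188.

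Among the folding genes, 4 of 33 intervals were lower and 2 higher, all at the disulfide isomerases PDIA4, PDIA5 and PDIA6 (12.1% lower and 6.06% higher, against 15.5% and 7.26% of all intervals). DESeq2 called 1 lower and 0 higher. PDIA6 had an interval at chr2:10810756-10811393, 1711 bp downstream of an annotated start, with 3.58 and 3.71 CPM in the shIRF4 libraries and 8.31 and 6.99 CPM in the control libraries (-1.07, SE 0.18, adjusted p = 0.000133, edgeR). The adjoining interval over that start, whose promoter holds the ERSE shown above, had 48.2 and 48.9 CPM in shIRF4 and 48.3 and 48.7 CPM in control (0.00, adjusted p = 0.994, edgeR). PDIA5 went both ways: an interval at chr3:123152660-123154515 had 28.2 and 22.8 CPM in shIRF4 and 18.3 and 19.6 CPM in control (0.45, SE 0.10), and another at chr3:123105285-123106140 had 7.003 and 6.655 CPM in shIRF4 and 10.07 and 10.04 CPM in control (-0.55, SE 0.14), and DESeq2 made neither call. The rise was 0.27 without shIRF4 replicate 1 and then did not pass (adjusted p = 0.131). PDIA4 rose at chr7:148986510-148986909, with 3.75 and 4.04 CPM in shIRF4 and 2.10 and 2.31 CPM in control (0.80, SE 0.23), and fell at chr7:149026927-149027527 near its start (-0.59, SE 0.18). The PDIA4 rise was lost without any of 3 libraries, all but shIRF4 replicate 2, and the PDIA4 fall without control replicate 1 (adjusted p = 0.171), and DESeq2 made neither call (adjusted p = 0.278 for the rise and 0.282 for the fall). The starts of the lectin chaperones were not called: CALR had 69.2 and 67.0 CPM in shIRF4 and 66.0 and 67.0 CPM in control (0.04, adjusted p = 0.737, edgeR), and CANX had 84.8 and 83.9 CPM in shIRF4 and 79.4 and 84.0 CPM in control (0.05, adjusted p = 0.634, edgeR).

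Among the COPII coat genes and cargo receptors, 4 of 28 intervals were lower and 1 higher (14.3% and 3.57%, against 15.5% and 7.26% of all intervals). DESeq2 called 2 lower and 0 higher. SEC24C and SEC24D encode coat subunits that select cargo. The SEC24D interval at chr4:118759993-118761212 in the gene body had 14.2 and 16.4 CPM in the shIRF4 libraries and 25.8 and 23.3 CPM in the control libraries (-0.70, SE 0.10, adjusted p = 2.38e-05, edgeR), and its neighbour at chr4:118758025-118758615 fell by 0.77 (SE 0.16), which did not hold without shIRF4 replicate 1 or in DESeq2. The SEC24C interval at chr10:73759466-73760052 had 7.65 and 10.04 CPM in shIRF4 and 17.4 and 15.8 CPM in control (-0.96, SE 0.13, adjusted p = 1.07e-05, edgeR). SEC23A, the partner of SEC24 in the inner coat, had 1 interval of each kind, a rise at chr14:39060908-39061376 (10.7 and 9.60 CPM in shIRF4 and 7.21 and 6.70 CPM in control; 0.57, SE 0.14) and a fall at chr14:39045939-39046226 (-0.85, SE 0.22). Both SEC23A calls were lost without control replicate 2, without shIRF4 replicate 1 and in DESeq2. The outer coat gene SEC13, the GTPase genes SAR1A and SAR1B, and LMAN1 with its partner MCFD2, which carry coagulation factors V and VIII, had no called interval. Their starts changed by -0.03 to 0.21, the largest at SEC13 with 25.8 and 27.2 CPM in shIRF4 and 23.3 and 22.3 CPM in control (adjusted p = 0.0904, edgeR).

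**Figure D4:**
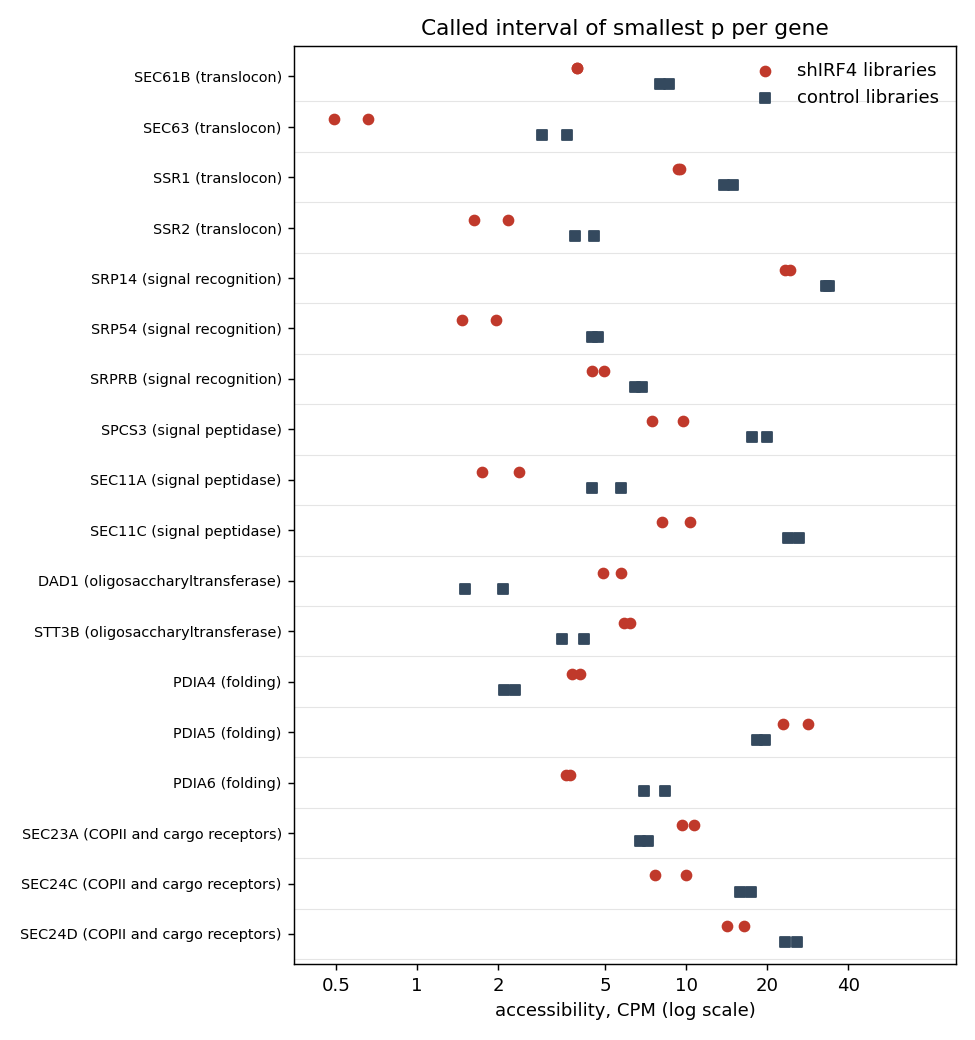
CPM (horizontal axis, log scale) in the shIRF4 libraries (red circles, upper row of each gene) and control libraries (dark squares, lower row) for the called interval of smallest p in each of 18 genes, with the gene's role in parentheses. The shIRF4 points lie left of the control points at 13 genes and right of them at DAD1, STT3B, PDIA4, PDIA5 and SEC23A.

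The 24 members with an interval and no called one included SEC61A1, RPN1, PDIA3, P4HB, CALR, CANX and SEC31A. For the 23 of them with an interval at a start or gene end, the most accessible such interval averaged 20.02 to 92.3 CPM in shIRF4 and 20.7 to 87.9 CPM in control. Its change lay between -0.14 at SRP72 and 0.21 at SEC13, and the smallest adjusted p was 0.0815, at PDIA3. P4HB, the founding protein disulfide isomerase, had the highest of these levels, with 95.1 and 89.5 CPM in shIRF4 and 89.4 and 86.4 CPM in control.

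With counts summed over all intervals of a gene, 7 of 42 members were lower in shIRF4, 1 was higher and 34 were not called. That is 19.0% called against 20.4% of the 16334 genes tested the same way. Of all genes 2204 were lower (13.5%) and 1125 higher (6.89%). With totals-only scaling that balance turned to 1666 lower and 2154 higher, and 5 members were lower and 3 higher. SEC63 fell most, with summed levels of 24.1 and 25.1 CPM in shIRF4 and 36.6 and 33.5 CPM in control (-0.51, SE 0.08, adjusted p = 0.000205, edgeR). SEC24D fell by 0.44 (SE 0.06), SPCS3 by 0.38 (SE 0.05) and SEC11C by 0.30 (SE 0.05). These 4 calls held in every fit except the test against a 1.5-fold change. SEC61B (-0.20), SRP14 (-0.17) and PDIA6 (-0.15) were lower and DAD1 (0.16) higher by smaller amounts, and each of those 4 calls was lost without control replicate 1, without control replicate 2 and in DESeq2.

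Read as a median, the wider surroundings of the called sites showed no broad shift. A median does not show shifts of a few neighbours, such as those at SEC11C, SPCS3 and SEC63. Within 500 kb on either side of each called member interval, the median log2 fold change of the other intervals lay between -0.10 and 0.15. Around the SEC11C cluster it was 0.05 and around the SPCS3 cluster -0.05. The called sites had lower levels than the starts: 24 of the 41 averaged below 10 CPM in both groups. Changes there rest on few reads, and the smallest change that could be detected at this depth was not tested.

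Of 44 further secretory genes, 42 had an interval. Of their 131 intervals 21 were lower and 3 higher, 18.3% called against 22.8% of all intervals, with a median log2 fold change of 0.03. At starts and gene ends 3 of 43 were called (6.98%, against 11.8% of all such intervals). Elsewhere 21 of 88 were called (23.9%, against 25.0% of all assigned intervals elsewhere). The chaperone and oxidation genes held 10 of the lower intervals among 34, at HSP90B1, HYOU1, ERP44, TXNDC5 and TXNDC11 (29.4% lower, against 15.5% of all intervals). DESeq2 called 9 of the 131 intervals lower and 0 higher. TXNDC11 held 5 of the 10, and of these DESeq2 kept only the largest fall (adjusted p = 0.119 to 0.414 for the others). The call of HSP90B1 at chr12:103925110-103925590 was lost in DESeq2 too (adjusted p = 0.108). The HYOU1 call was lost in DESeq2 (adjusted p = 0.375), with totals-only scaling and without control replicate 1, control replicate 2 or shIRF4 replicate 2. TXNDC11, a thioredoxin domain protein of the ER, had the largest fall, with 3.96 and 5.02 CPM in shIRF4 and 12.3 and 13.8 CPM in control at chr16:11690532-11691499 (-1.60, SE 0.15, adjusted p = 1.18e-07, edgeR). An interval 44148 bp upstream of BET1, a vesicle fusion SNARE, fell by 1.49 (SE 0.28). The higher ones were in COPA, a COPI coat subunit (1.34, SE 0.26, lost in DESeq2 at adjusted p = 0.0516), in UGGT1 (0.61, lost in DESeq2, with the replicate block and without control replicate 1, control replicate 2 or shIRF4 replicate 1), which also had a lower interval, and in the cargo lectin LMAN2 (0.42, SE 0.13, lost without control replicate 1, control replicate 2 or shIRF4 replicate 1 and in DESeq2). Of the genes for ER exit, 1 of 25 intervals was called, that of LMAN2.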

How the data were processed

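Each deposited file gives, per the file headers, the authors' featureCounts 2.0.0 counts of raw reads in a shared set of merged peaks: reads reduced to their 5' end, marked duplicates ignored, paired-end setting, fractions of multi-mapping reads requested (all counts were whole). The submitters' processing notes name hg38. An aligner, a peak caller and any transposase offset shift are not given in the sources used here. Ignoring duplicates can lower counts at dense sites, more so in deeper libraries.

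Titles and design text say shIRF4, while column names in the files say siIRF4. Genes came from the RefSeq table of GRCh38.p14. Midpoints in several gene bodies counted for each, which concerned 1304 intervals and 5 members. filterByExpr left 73028 of 73135 intervals and all 166 members. edgeR 4.0.16 in R 4.3.3 (TMM, estimateDisp, glmQLFit with legacy=FALSE, two-sided test) used all 4 libraries with group as the only term; SE is the log2 fold change divided by the square root of F. An exact permutation of 2 against 2 libraries cannot go below p = 0.333, so none was used. Alternatives used DESeq2 1.42.0, other scalings, filters, assignments and libraries left out. The fit was tested on simulated data. Named intervals are those of smallest p per gene among called ones, since more than 30 were called. Members and lists were chosen with earlier results of these data known. Sequences of distal intervals were not used here.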

Additional observations from a re-analysis of the deposited data

How the results depend on the processing

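In DESeq2, 3714 of all intervals were lower and 856 higher, 15 and 1 of the member intervals, 9 and 0 of the intervals of the other secretory genes, 0 and 0 of the member starts and gene ends (1 and 0 at an unadjusted p under 0.05, against 3 and 4 in edgeR), and 4 and 0 of the member genes by summed counts (5 and 1 unadjusted). Against a 1.5-fold change (edgeR glmTreat) the lower and higher counts were 2419 and 467, 13 and 1, 7 and 1, 0 and 0, and 0 and 0 in the same order. With totals-only scaling 3 member starts and gene ends, 6 intervals of the other genes and 3 member genes were higher. Without the filter, with the replicate block and with the 2 control libraries merged into 1 sample (chosen after seeing the data) 0 member starts and gene ends were higher (unadjusted 4, 4 and 1); after that merging 1 interval of the other genes and 0 member genes were higher.

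With 1 library left out, the lower counts ranged from 6429 to 13153 for all intervals, 20 to 33 for member intervals, 0 to 2 for member starts and gene ends, 13 to 20 for the other genes and 4 to 8 for summed counts. The higher counts ranged from 2614 to 6880, 3 to 14, 0 to 3, 1 to 6 and 0 to 3. A lone library of a group is then assumed to vary like the other group. Counting only intervals in gene bodies left 14 lower and 4 higher members and 13 lower intervals of the other genes, and a gene end distance of 250 bp left 0 lower at starts and gene ends; fewer intervals enter both. The cause of the other shifts was not tested.

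Of 180 refits of the 18 named intervals, 148 kept direction and call and 32 kept the direction only; of 80 for the 8 called genes by summed counts, 52 and 28. Replicate numbers are shared by the groups, but nothing says that they pair libraries: deviations of same-numbered libraries correlated at r = -0.0273 over intervals. With the replicate number as a block, 11402 of all intervals were lower and 5210 higher, and 31 and 8 of the members. Chi-square per interval was 2.01 between the shIRF4 libraries and 1.04 between the control libraries, where counting error alone gives about 1, and the named interval with the fewest reads, at SEC63, rests on 6 to 43 per library.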
